A study of Gallus gallus with 24 samples.

Results

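The response to salinomycin (Sal) was compared between the liver and the heart of broiler chickens. For every gene, the change from control to Sal-exposed birds in the heart was subtracted from the same change in the liver. This difference between differences is the interaction of tissue and treatment, and it is positive where the liver response lay above the heart response. All 24 libraries of the 4 groups entered 1 fit. The test covered 14632 of the 15051 genes in the count table, those left after a filter on low counts.

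The birds were female broilers raised on litter and fed a Sal-free diet in weeks 1 to 3. In weeks 4 and 5 the Sal-exposed birds received 10.5 mg Sal per kg feed, about 0.9 mg per kg body weight per day, and the control birds stayed on the Sal-free diet. Heart and liver were taken at week 5, which gave 6 control hearts, 6 Sal-exposed hearts, 6 control livers and 6 Sal-exposed livers. The pen of each bird is not given in the labels, so pen and diet cannot be told apart, and although the methods describe both organs as dissected from the same birds, the labels do not say whether equal replicate numbers in heart and liver mark the same bird. Hearts and livers were homogenized in different reagents, which separates the tissues but not the treatments.

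Sal is a polyether ionophore fed to broilers against coccidia. It carries monovalent cations across membranes and down their gradients, which loads cells with sodium, drains potassium and disturbs mitochondria. Heart muscle, with its constant demand for ion pumping and oxidative ATP, and liver, where ionophores are metabolized, are both described as affected organs. The interaction asks which transcripts responded differently in these tissues within 1 exposure.

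Library totals ran from 31370576 to 44528499 counts. Control livers 6 and 1 had the fewest genes detected, 12355 and 13311, against 14120 or more in every other library. Their totals, 41238649 and 35434299 counts, lay within the range of the others. The joint part of these libraries in results that rest on low control-liver values was not tested. Albumin (*ALB*) lay at 55113 CPM (normalised read counts, scaled to library size) or more in each liver and at 68.5 CPM or less in each heart, and cardiac actin (*ACTC1*) at 8605 CPM or more in each heart and at 58.0 CPM or less in each liver. Mitochondrially encoded genes took 38.6 to 47.9% of counts in control hearts and 40.7 to 79.6% in Sal-exposed hearts, where libraries 1 and 4 stood apart at 72.0% and 79.6%. In livers their share was 5.21 to 26.5% in controls and 6.92 to 30.4% in Sal-exposed birds, with Sal-exposed liver 4 at the top. Because these are bulk samples, fewer cells of a type and less RNA per cell cannot be told apart in any result here.

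The response to Sal differed between the 2 tissues for part of the genes. The interaction was called for 1548 genes, 10.6% of those tested, with an adjusted p (p-adj) no higher than 0.05 and a log2 difference of 1 or more in size. The response was higher in liver for 877 genes (5.99%) and lower in liver for 671 (4.59%). Without the log2 limit, p-adj was at most 0.05 for 2373 genes (16.2%), of which 1318 (9.01%) were higher in liver and 1055 (7.21%) lower. The median interaction over all genes tested was 0.09, so the genes called moved away from a centre close to 0. The test was edgeR's quasi-likelihood F-test with Benjamini-Hochberg adjustment over all 14632 genes, and every p-adj below comes from it. By the methods, the libraries of a group come from separate birds, so the p-values measure the spread between birds. Hearts and livers entered the fit as unpaired, so the interaction p-values leave out any correlation between the organs of 1 bird.

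The liver carried most of the difference. Its own response passed p-adj of at most 0.05 for 3654 genes (25.0%), of which 2168 (14.8%) were upregulated and 1486 (10.2%) downregulated. The heart response passed for 41 genes (0.280%), of which 35 (0.239%) were upregulated and 6 (0.0410%) downregulated. Of the 41, 16 reached 1 CPM in at least 6 libraries of each tissue. Among those upregulated, 10 were plasma proteins made by hepatocytes. With a log2FC of at least 1 in size as well, 35 genes passed in heart and 1464 in liver. The paper, with DESeq2 and sva, reports more genes in both tissues at such limits, with the wider gap in heart. The reason was not tested. Without adjustment, p was below 0.05 for 10.2% of genes in heart and 37.2% in liver. The median standard error of a log2 fold change (log2FC) was 0.27 in both tissues, while the median absolute log2FC was 0.45 in liver and 0.23 in heart. Of the 1548 genes called, the liver response alone passed for 1324, the heart response alone for 27, both for 7 and neither for 190.

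**Figure D1:**
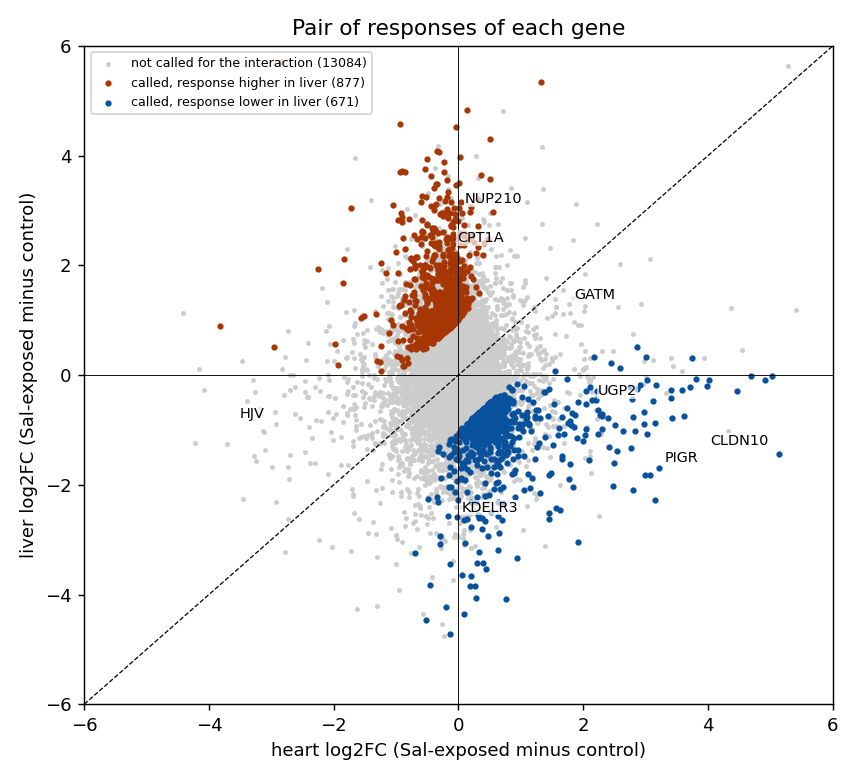
Each point is a gene, with its heart log2FC (Sal-exposed minus control) on the x axis and its liver log2FC on the y axis; the dashed line marks equal responses. The 877 genes called higher in liver (brown) stretch upward along the vertical axis and the 671 called lower (blue) lie below the line, while 8 genes beyond 6 on an axis are not drawn.

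By sign, 791 of the genes called (51.1%) went up in liver and down in heart, and 627 (40.5%) went down in liver and up in heart. A further 93 went up in both tissues and 37 went down in both. Over all genes tested, 31.2% went up in liver and down in heart and 25.4% the other way. Another 21.4% went up in both and 21.5% down in both. A call needs a large difference between the 2 responses, which favours opposite signs, so no conclusion is drawn from their share among the genes called. Signs of the weaker response were often set by small values: among genes called higher in liver the median log2FC was 1.2 in liver and -0.26 in heart, and among those called lower it was -0.96 in liver and 0.51 in heart. Across all genes tested, liver and heart log2FC had a Pearson r of -0.07 and a Spearman rho of -0.15, a description over genes that share the same 24 libraries.

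Among the genes higher in liver with the lowest p were a transporter, a nuclear pore protein and enzymes of methyl and sugar transfer. *ATP13A3*, a polyamine-transporting ATPase in mammals (chromosome 9, 12527215 to 12577933 in GRCg7b), lay at 1.87, 2.43 and 3.8 CPM (lowest, median and highest) in control livers and at 4.06, 10.8 and 15.1 CPM in Sal-exposed livers. In hearts it lay at 15.2, 17.3 and 19.7 CPM in controls and 10.1, 12.9 and 16.2 CPM in Sal-exposed birds. The livers did not overlap, the hearts did, and heart levels were above liver levels in controls. Its interaction was 2.55 ± 0.33 (SE; p-adj = 0.000304), from a liver log2FC of 2.13 and a heart log2FC of -0.42.

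*NUP210*, a glycoprotein of the nuclear pore membrane, rose in liver from a median of 5.48 CPM (2.42 to 6.33) to 44.7 CPM (10.1 to 61.8). Hearts stayed at medians of 18.1 CPM (16.8 to 18.7) and 16.6 CPM (12.0 to 27.0). Sal-exposed livers thus passed the level of hearts in most birds, after control livers had lain below them. The interaction was 3.03 ± 0.44 (p-adj = 0.000316).

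*MTR*, methionine synthase, had medians of 13.4 CPM (10.6 to 19) in control and 38.7 CPM (24.2 to 50.7) in Sal-exposed livers, against 12.9 CPM (12.0 to 13.9) and 8.91 CPM (4.93 to 13.1) in hearts. Control livers and hearts started near the same level and only the livers separated by treatment. Its interaction was 1.96 ± 0.28 (p-adj = 0.000316). *MGAT5*, which adds a branch to N-glycans, stood at 0.034 to 0.469 CPM in control livers and 1.06 to 3.16 CPM in Sal-exposed livers, with hearts at 4.37 to 8.90 CPM in all birds; its interaction was 3.53 ± 0.51.

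The other genes higher in liver under the naming rule were *RCC2*, which acts at mitotic chromosomes, the transcription cofactor *HTATSF1*, the zinc-finger factor *NFX1*, *FAM135A*, and *PAM*, which amidates peptides. Their interactions lay between 1.44 (*RCC2*) and 3.77 (*NFX1*), each with p-adj of at most 0.000392, and control and Sal-exposed livers did not overlap for any of these 5 genes. Over all genes tested, all Sal-exposed livers lay above all control livers for 3.57% and below them for 1.80%, and in hearts for 1.67% and 0.936%. *RCC2* shares 482 bases of its span with *ARHGEF10L*, and whether the counting used strand is not stated.

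*ITPK1*, an inositol phosphate kinase on chromosome 5, also came among these genes, but its value is uncertain. The annotation holds 2 gene models with this symbol at 44416223 to 44550053, and reads must be split between them. The model that was called had 0 counts in all 6 control livers and 1989 counts over the Sal-exposed livers, where 1 of 6 libraries was at 0. Against the limit of 3 counts over the group this is at least 455-fold higher. The second model lay at 8.34 to 14.8 CPM in control livers and 3.81 to 12.8 CPM in Sal-exposed livers. Summed, the models overlapped between treatments, at 8.34 to 14.8 CPM in control livers and 12.1 to 21.1 CPM in Sal-exposed livers.

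The genes lower in liver with the lowest p included receptors, junction proteins and an inflammatory caspase. *PEAR1*, a receptor of platelets and endothelium (chromosome 25, 1087676 to 1096825), lay at 20.2, 29.0 and 44.8 CPM in control livers and 3.87, 6.29 and 7.13 CPM in Sal-exposed livers. Hearts lay at 7.28, 7.72 and 9.26 CPM in controls and 4.65, 6.70 and 7.54 CPM in Sal-exposed birds. Livers fell to the range of hearts, and hearts overlapped. The interaction was -2.0 ± 0.26 (p-adj = 0.000304). Summed over their whole lists, endothelial markers ran from 311 to 437 CPM in control and 263 to 396 CPM in Sal-exposed livers. Thrombocyte markers ran from 58.4 to 122 and from 49.4 to 78.7 CPM. These sums hide a split. Of 10 endothelial markers, which include *PEAR1*, 3 passed as downregulated in liver and 0 as upregulated, though 6 had a positive log2FC. Of 10 thrombocyte markers, 4 passed as downregulated and 0 as upregulated, and 3 were positive. Over all genes 10.2% passed as downregulated in liver. The part of these cells in the *PEAR1* result was not tested.

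*KDELR3*, a receptor that returns chaperones to the endoplasmic reticulum (ER), fell in liver from 16.9, 23.4 and 38.8 CPM to 2.64, 4.44 and 6.17 CPM. Hearts lay at 12.5, 15.3 and 18.5 CPM in controls and 9.31, 16.3 and 20.1 CPM in Sal-exposed birds. Its liver log2FC was -2.59, its heart log2FC -0.03 and its interaction -2.56 ± 0.34 (p-adj = 0.000304). It shares 1369 bases with *DDX17*, a much more abundant gene.

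*IFT46*, a subunit of intraflagellar transport, was separated by treatment in both tissues. Livers went from 12.2, 17.3 and 18.3 CPM to 6.66, 8.15 and 11.1 CPM, and hearts from 15.9, 17.1 and 21.7 CPM to 22, 25.1 and 39.2 CPM. Neither pair of groups overlapped. The liver log2FC of -0.98 passed its test, the heart log2FC of 0.57 had p-adj = 0.148, and the interaction was -1.55 ± 0.22 (p-adj = 0.000316). Sal-exposed heart 2 held the highest value.

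*CASP1*, the caspase that activates interleukin-1β, fell in liver from a median of 60.2 CPM (46.3 to 92.2) to 26.0 CPM (22.1 to 33), with hearts at 11.5 CPM (11.2 to 13) and 13.6 CPM (12.2 to 20.3). Its interaction was -1.59 ± 0.23. *TJP3*, a tight junction scaffold, *PALM*, a membrane-bound phosphoprotein, and *PGAP3*, which remodels lipid anchors, also fell in liver with no overlap. Their interactions were -1.84, -1.67 and -2.34, each with p-adj = 0.000316. *TJP3* lies wholly within an unnamed gene model and *PGAP3* shares 6711 bases with *ERBB2*, so their counts may include reads of those genes.

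**Figure D2:**
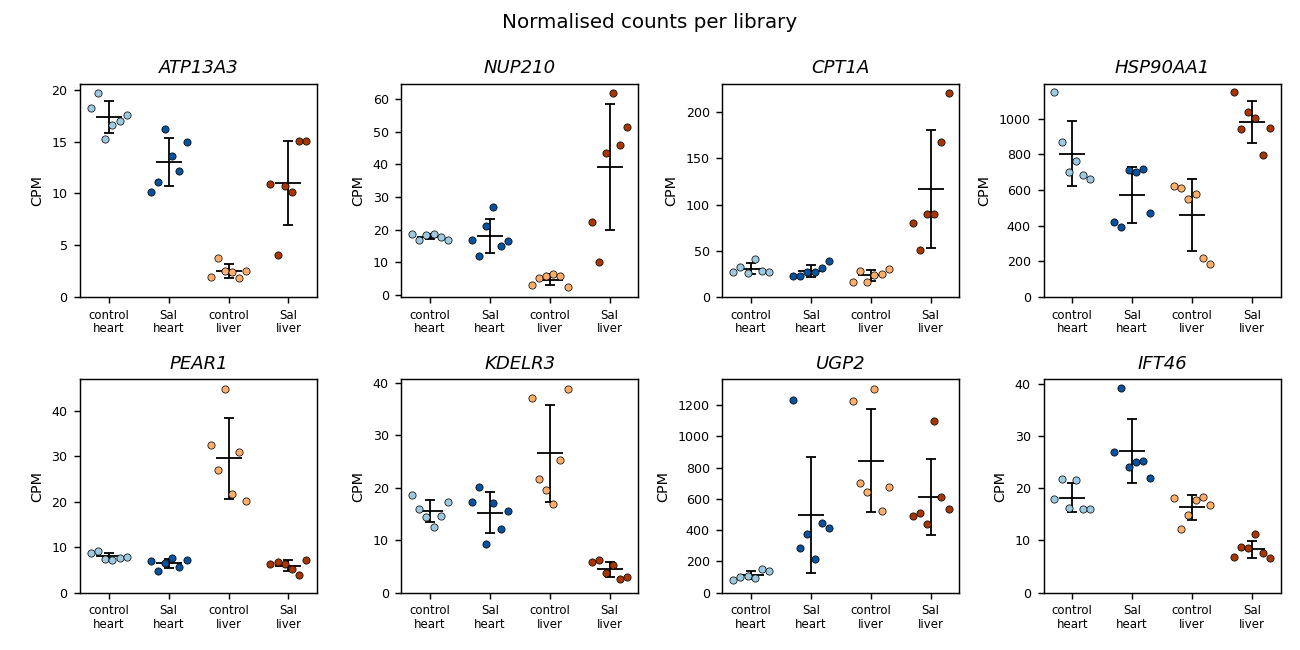
Normalised counts (CPM) of 8 genes in each library, with 6 points per group and the mean ± SD in black. The top row shows genes whose response was higher in liver and the bottom row genes whose response was lower, among them *UGP2*, where the hearts moved, and *IFT46*, where both tissues separated.

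On their own, 10 genes passed in both tissues, and the pairs differed in sign. They were 10 of the 41 genes that passed in heart, while 25.0% of all genes passed in liver. The count is near that share, so it does not show that the tissues shared few genes. Upregulated in heart and downregulated in liver were *CLDN10*, *PIGR*, *PLG*, *FETUB*, *APOH*, *DNAJC18* and a gene with no symbol, all 7 called for the interaction. *FAM83H* and *HJV* were downregulated in both tissues and *AKAP10* was upregulated in both. No gene passed as upregulated in liver and downregulated in heart.

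In the hearts most of those 7 genes were at trace levels. *PIGR*, the receptor that carries polymeric immunoglobulins across epithelia, lay at 456, 812 and 1167 CPM in control livers and 82.2, 280 and 349 CPM in Sal-exposed livers, with no overlap. In hearts it lay at 0.0198, 0.0754 and 0.211 CPM in controls and 0.394, 0.564 and 2.68 CPM in Sal-exposed birds, again with no overlap but from 24 and 137 counts per group. Its interaction was -4.90 ± 0.68 (p-adj = 0.000316). *CLDN10*, a claudin of tight junctions, rested on 1 count over all control hearts and 39 over Sal-exposed hearts, a ratio of 57.4 with an exact 95% counting interval of 9.71 to 2324. *DNAJC18*, a cochaperone, was the exception in level, with heart medians of 47.6 and 70.6 CPM.

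*FAM83H*, of a family of casein kinase partners, and *HJV*, hemojuvelin, which controls hepcidin and thereby iron uptake, went down together in both tissues. *FAM83H* went from medians of 13.7 to 8.05 CPM in liver and 5.69 to 3.21 CPM in heart, with log2FC of -0.75 and -0.90. The interaction was 0.16, with a 95% interval of -0.33 to 0.64, which leaves room for a modest difference either way. *HJV* went from 46.2 to 22.8 CPM in liver, while in heart it went from 0.462 to 0.0708 CPM, a trace level. Its interaction of 1.46 ± 0.51 missed the threshold (p-adj = 0.0530).

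Ranked by the weaker of the 2 responses, few genes moved clearly upward together. *GATM*, which makes the creatine precursor guanidinoacetate, went from a median of 440 CPM (145 to 682) to 1006 CPM (728 to 1544) in liver with no overlap. Heart medians were 0.108 and 0.390 CPM, on 37 and 87 counts per group, with log2FC of 1.77 (p-adj = 0.0810). *KLF9*, a glucocorticoid-induced transcription factor in mammals, was measured well in both tissues. Livers went from 3.56, 6.23 and 8.44 CPM to 6.28, 9.93 and 21.1 CPM, and hearts from 10.1, 14.6 and 19.5 CPM to 19.98, 30.2 and 37.2 CPM. The hearts did not overlap, yet the heart log2FC of 1.01 had p-adj = 0.136 over all genes, and the interaction was -0.05 with an interval of -0.83 to 0.73. *EMC2*, of the ER membrane insertase, had log2FC of 0.47 in liver and 0.45 in heart, and *HIGD1C* 0.74 and 0.56. *HIGD1C* shares 3427 bases with *ACKR2*.

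Downward pairs included the ciliary rootlet gene *CROCC*, with log2FC of -1.26 in liver and -0.61 in heart, and *SAMD11*, with -0.94 and -0.83. The liver response of each passed and the heart response did not. Their interactions were -0.65 (interval -1.21 to -0.08, p-adj = 0.106) and -0.11 (-0.82 to 0.61).

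Up in liver and down in heart were 2 unconventional myosins, a cotransporter and a lipid kinase partner. *MYO5A* lay at medians of 11.7 CPM (8.94 to 16.4) and 23.8 CPM (16.7 to 28.8) in control and Sal-exposed livers and at 8.51 CPM (6.43 to 10.6) and 4.58 CPM (1.83 to 6.74) in hearts. *MYO10* lay at 20.4 CPM (14.8 to 23.4) and 40.6 CPM (26.6 to 43.6) in livers and at 6.73 CPM (5.68 to 9.46) and 4.35 CPM (3.03 to 6.38) in hearts. Livers did not overlap for either gene, and hearts overlapped. The interactions were 1.81 ± 0.33 and 1.59 ± 0.25. *MYO5A* shares 13509 bases with *ARPP19*, a more abundant gene. *FAM126A*, a partner of phosphatidylinositol 4-kinase, had an interaction of 1.41 ± 0.24. Heart responses of these genes, from -0.60 to -0.91, did not pass.

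Down in liver and up in heart, at clear levels in both tissues, were *STK40*, a kinase family member, and *PIGT*, which attaches proteins to lipid anchors. *STK40* lay at 47.2 CPM (31.7 to 60.6) and 28.0 CPM (26.3 to 36.1) in livers and 46.1 CPM (37.7 to 52.4) and 70.6 CPM (55.4 to 105) in hearts. *PIGT* lay at 55.8 CPM (40.9 to 83.9) and 31.3 CPM (28.1 to 46.4) in livers and 27.1 CPM (23.2 to 27.7) and 41.0 CPM (31.9 to 52.0) in hearts. For both genes the hearts did not overlap and the livers did, yet the liver responses passed and the heart responses did not (p-adj = 0.0650 and 0.127). Interactions were -1.31 ± 0.22 (p-adj = 0.000785) and -1.46 ± 0.24 (p-adj = 0.000599).

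Plasma proteins made by hepatocytes gave the most one-sided list. Of 30 gene models tested, 21 were called lower in liver and 0 higher, against 4.59% and 5.99% of all genes; 24 had an unadjusted p below 0.05. The list's median interaction was -2.32 against 0.09 over all genes, from a median log2FC of -0.76 in liver and 1.60 in heart. In liver 8 members were downregulated and 0 upregulated, and in heart 10 were upregulated and 0 downregulated.

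*ALB* lay at 73848, 115551 and 195927 CPM in control livers and 55113, 70793 and 129890 CPM in Sal-exposed livers, which overlapped (log2FC -0.70, p-adj = 0.188). In hearts it lay at 4.70, 5.50 and 8.34 CPM in controls and 17.3, 24.1 and 68.5 CPM in Sal-exposed birds, with no overlap (log2FC 2.30, p-adj = 0.0123). The interaction was -3.0 ± 0.55. *GC*, the vitamin D-binding protein, fell in livers from 11270 CPM (7498 to 14497) to 3681 CPM (2934 to 5727) without overlap, and in hearts lay at 0.351 and 1.00 CPM at the median; its interaction was -3.13 ± 0.50. *FETUB*, a fetuin that inhibits proteases, *APOH*, a phospholipid-binding plasma protein, and *PLG*, plasminogen, had interactions of -4.09, -3.64 and -2.72. *FETUB* lies wholly within an unnamed gene model, so its counts may include reads of that gene. *APOA1*, the main protein of high-density lipoprotein and one that chicken hearts also express, lay at 225 to 723 CPM in control hearts and 236 to 480 CPM in Sal-exposed hearts. Its interaction was 0.20 (interval -0.69 to 1.09).

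The hepatocyte marker list shares members with the plasma protein list, among them *ALB*, *APOH* and *FETUB*, so its shift is not separate evidence. Summed over its 15 gene models, it lay at 10.1 to 16.6 CPM in control hearts and 28.6 to 106 CPM in Sal-exposed hearts, without overlap, with heart 3 at the top. In livers the same sum was 104329 to 262582 CPM in controls and 88853 to 183124 CPM in Sal-exposed birds. Of the 21 plasma protein calls, 6 were among the 11 models measured in both tissues, at 1 CPM or more in at least 6 libraries of each. Sal-exposed hearts alone can meet this limit, so it does not show that a gene was measured in control hearts. *FGB*, for example, lay at 1.85 CPM or more in Sal-exposed hearts and at a median of 0.689 CPM in control hearts. Without Sal-exposed heart 3, 17 models were called lower with a median of -1.66, and without hearts 1 and 4, 22 were. Whether liver tissue or its RNA reached the heart samples was not tested.

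**Figure D3:**
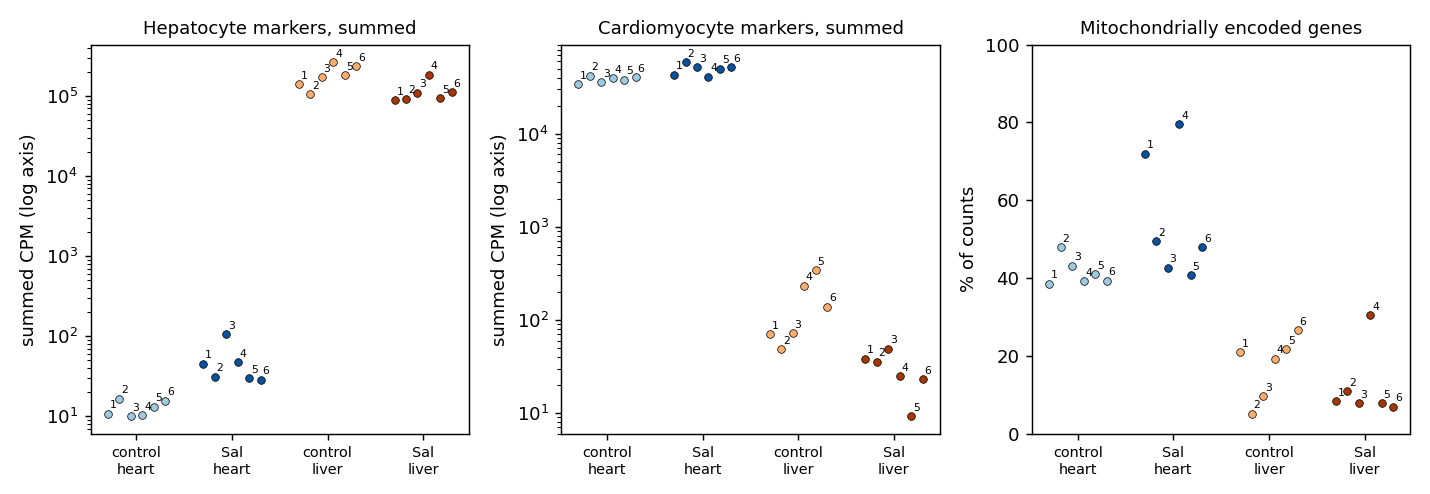
Each point is a library, numbered by replicate: summed hepatocyte markers and summed cardiomyocyte markers in CPM on log axes, and the percentage of counts on mitochondrially encoded genes. Hepatocyte markers lie higher in the 6 Sal-exposed hearts (28.6 to 106 CPM) than in control hearts (10.1 to 16.6), cardiomyocyte markers reach 340 CPM in control livers, and Sal-exposed hearts 1 and 4 exceed 70% mitochondrial counts.

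In the reverse direction, the 17 cardiomyocyte marker genes tested summed to 48.5 to 340 CPM in control livers and 9.24 to 48.9 CPM in Sal-exposed livers. Control livers 5 and 4 were highest, at 340 and 233 CPM. Troponin C (*TNNC1*), shared by heart and slow muscle, made up much of it, at 45.0 to 162 CPM in control and 5.68 to 35 CPM in Sal-exposed livers. In hearts the list ran from 33980 to 41889 CPM in controls and 41030 to 58576 CPM in Sal-exposed birds. Without control livers 4 and 5, 1207 genes were called and 1077 of them were among the 1548.

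Mitochondrially encoded proteins, the 13 respiratory chain and ATP synthase subunits made inside mitochondria, had medians of opposite sign in the 2 tissues, -1.06 in liver and 1.28 in heart (log2FC). On their own, 1 of 13 passed in liver and 0 of 13 in heart. For the interaction, 5 of 13 (38.5%) were called lower in liver and 0 higher, against 4.59% and 5.99% of all genes. *COX2*, a subunit of cytochrome c oxidase, lay at 7231, 40219 and 65968 CPM in control livers and 6164, 8211 and 41424 CPM in Sal-exposed livers. In hearts it lay at 33442, 38576 and 48005 CPM in controls and 39241, 73008 and 210341 CPM in Sal-exposed birds. Groups overlapped in both tissues, with 1 Sal-exposed liver far above the rest of its group. The interaction was -2.53 ± 0.77 (p-adj = 0.0264).

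*ATP8*, *ND1* and *COX3* had interactions of -3.66, -2.52 and -1.83, called in 24, 16 and 8 of the 24 fits that each left out 1 library, and *COX1* one of -2.06 that missed the threshold (p-adj = 0.0747). None of the single-tissue responses of these 5 genes passed. Without Sal-exposed hearts 1 and 4, 0 of 13 were called and the median was -1.30. With 1 library left out the count called lower ran from 2 to 10, and it was 10 without Sal-exposed liver 4 or control liver 2. With surrogate variables in the fit 0 were called lower, 1 was called higher and the median was -0.11, and without control livers 4 and 5, with the mitochondrial covariate or with offsets on span 1 was called lower. Of the 74 nuclear-encoded respiratory chain genes, 8 were called lower (10.8%) and 1 higher (1.35%), against 4.59% and 5.99% of all genes. The interaction was negative for 49 of them and positive for 25. Their median of -0.17 had the same sign as the -2.18 of the mitochondrially encoded proteins but was much smaller in size. Without Sal-exposed heart 2, 3 were called lower.

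Mitotic cell cycle genes went the other way. Of 36 tested, 7 (19.4%) were called higher in liver and 0 lower, against 5.99% and 4.59% of all genes, with a median interaction of 1.04 from median log2FC of 0.75 in liver and -0.36 in heart; 34 of the 36 were positive. In liver 11 were upregulated and 0 downregulated, and in heart none passed (0 of 36). *RBL1*, the retinoblastoma relative p107, is on the list although its gene name marks it as a transcriptional corepressor. Cell division was not measured, so the shift of the list is not read as more mitosis. *RBL1* rose from 1.16, 1.60 and 5.16 CPM in control livers to 3.17, 10.0 and 11.2 CPM in Sal-exposed livers. These groups overlapped between 1 high control library and 1 low Sal-exposed library. Hearts lay at medians of 9.62 and 8.10 CPM, and the interaction was 2.49 ± 0.47 (p-adj = 0.00148).

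*KIF11*, the spindle motor, had medians of 1.97 CPM (1.01 to 7.25) and 10.1 CPM (3.20 to 15.3) in control and Sal-exposed livers. Its hearts lay at 6.17 CPM (2.04 to 11.6) and 3.93 CPM (2.90 to 4.46), and the interaction was 2.46 ± 0.65 (p-adj = 0.0115). *BORA* and *WEE1*, regulators of entry into mitosis, had interactions of 1.90 and 1.83. *CDK1*, the kinase that drives mitosis, had 0.88 (interval -0.40 to 2.17, p-adj = 0.355). The number called was 14 without control liver 2, 13 without Sal-exposed liver 2 and 12 without control heart 3 or 5. It was 3 without Sal-exposed hearts 1 and 4, 3 without control livers 4 and 5, and 1 with the mitochondrial share of counts as a covariate. With surrogate variables 3 were called and the median fell to 0.10, and with voom 2 were called.

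**Figure D4:**
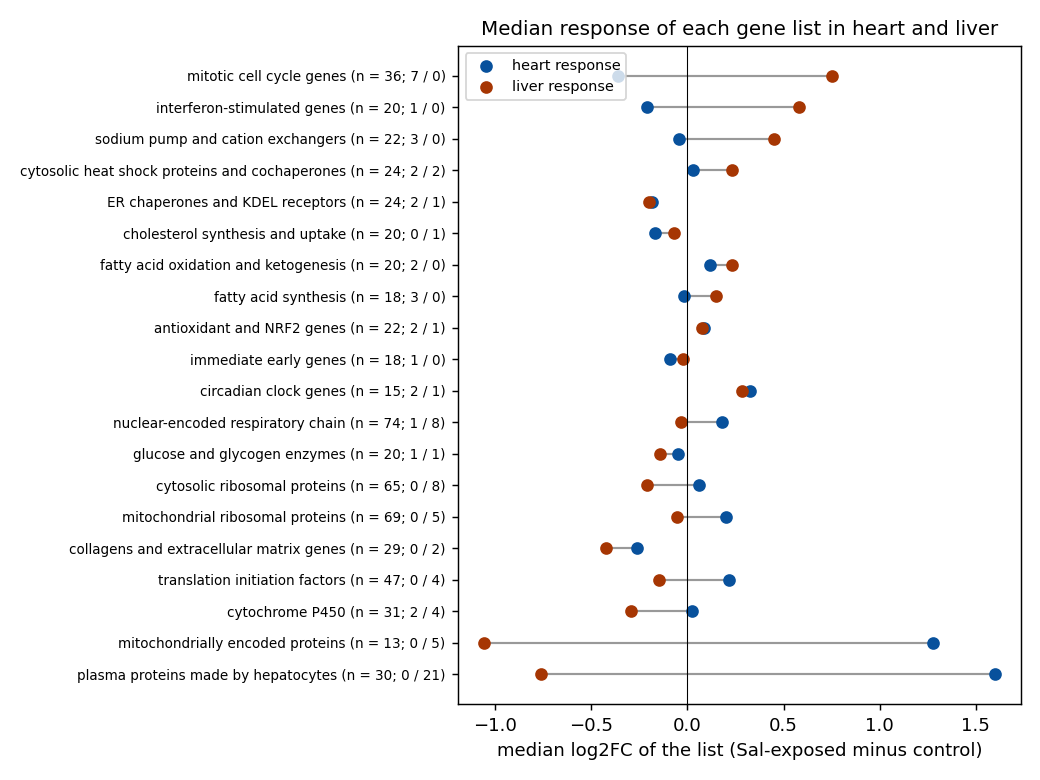
Median log2FC (Sal-exposed minus control) of 20 gene lists in heart (blue) and liver (brown), with the gene models tested and those called higher / lower in liver in brackets. The medians lie far apart for mitochondrially encoded proteins (1.28 in heart, -1.06 in liver) and plasma proteins (1.60 and -0.76), and close together for ER chaperones and clock genes.

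Among 24 ER chaperones and KDEL receptors, which fold and retain proteins of the secretory route, 2 were called higher in liver and 1 lower, 8.33% and 4.17%, shares near the 5.99% and 4.59% of all genes. *DNAJB9*, a cochaperone of the stress response, lay at 9.94 CPM (7.49 to 13.7) and 19.6 CPM (12.3 to 25.2) in livers and 18.7 CPM (16.9 to 27.4) and 17.4 CPM (16.4 to 19.7) in hearts, with an interaction of 1.04 ± 0.25. *SEL1L*, of the pathway that degrades misfolded ER proteins, had an interaction of 1.12 ± 0.29, and *KDELR3* was the member called lower. *HSP90B1*, the ER form of HSP90, was downregulated in heart from 246 CPM (222 to 340) to 117 CPM (64.1 to 173) without overlap (log2FC -1.09, p-adj = 0.0318). In liver it lay at 1086 CPM (635 to 1373) and 832 CPM (542 to 1017), and the interaction of 0.71 did not pass (p-adj = 0.132). *HSPA5*, the main ER chaperone BiP, had hearts without overlap (215 to 343 and 116 to 187 CPM), but its heart log2FC of -0.64 did not pass (p-adj = 0.314). Its livers overlapped and its interaction was 0.58 (p-adj = 0.251).

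The 24 cytosolic heat shock proteins and cochaperones were split, with 2 called higher and 2 lower (8.33% each). Over all genes these shares were 5.99% and 4.59%. *HSP90AA1*, the inducible cytosolic HSP90, rose in livers from 183, 562 and 623 CPM to 794, 978 and 1149 CPM without overlap. Hearts lay at 660, 731 and 1149 CPM in controls and 395, 586 and 720 CPM in Sal-exposed birds, and the interaction was 1.59 ± 0.38 (p-adj = 0.00632). *HSPH1*, a nucleotide exchange factor of the HSP70 cycle, had an interaction of 1.05 ± 0.35 and separate livers (4.80 to 16.8 and 18.9 to 28.4 CPM). *HSPH1* was called in 12 of 24 fits with 1 library left out. *HSF1*, the transcription factor of the heat shock response, went down in liver from 19.6 to 6.69 CPM at the median, with an interaction of -2.10 ± 0.39 (p-adj = 0.00132). *BAG3*, an HSP70 cochaperone of muscle, had -1.18 ± 0.36; its span lies inside that of *TIAL1*.

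Lipid genes were called mostly one by one. *CPT1A*, which admits long-chain fatty acids to mitochondria, rose in livers from 16.2, 24.3 and 30.1 CPM to 51.0, 89.8 and 221 CPM without overlap, with hearts at 27.6 CPM (26.2 to 41.2) and 26.7 CPM (22.1 to 39.1). The interaction was 2.43 ± 0.37 (p-adj = 0.000457). *ACAA1*, a peroxisomal thiolase, had 1.05 ± 0.22. These were the 2 of 20 oxidation and ketogenesis genes called (10%), against 5.99% of all genes called higher in liver. Among 18 fatty acid and triglyceride synthesis genes, *PNPLA3*, *LPIN1* and *DGAT2* were called higher in liver (16.7%, against the same 5.99%). *PNPLA3*, a lipid droplet lipase, lay at 183 CPM (78.4 to 236) and 257 CPM (103 to 481) in livers and 19.2 CPM (13.5 to 34.8) and 10.1 CPM (6.87 to 11.3) in hearts, which did not overlap. *LPIN1* and *DGAT2*, which act on the way to triglycerides, had interactions of 2.5 and 2.11, of which the second was called in 7 of 24 fits with 1 library left out. In liver the response of *LPIN1* passed (log2FC 2.59, p-adj = 0.00218). That of *DGAT2* was 0.18 in liver and -1.93 in heart, and that of *PNPLA3* 0.76 and -1.12. Neither gene passed in either tissue. *FASN*, fatty acid synthase, had 0.08 (interval -0.69 to 0.86).

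*UGP2*, which makes the UDP-glucose used for glycogen, was a case in which the heart moved. Hearts lay at 81.5, 104 and 149 CPM in controls and 218, 395 and 1232 CPM in Sal-exposed birds, without overlap (log2FC 2.15, p-adj = 0.00695). Livers lay at 522, 687 and 1304 CPM in controls and 439, 521 and 1097 CPM in Sal-exposed birds, which overlapped (log2FC -0.46, p-adj = 0.336). The interaction was -2.61 ± 0.48 (p-adj = 0.00132). *PCK1*, the gluconeogenic enzyme, ran from 3.64 to 373 CPM in control livers and 3.12 to 690 CPM in Sal-exposed livers, so its interaction of -0.11 had an interval from -3.81 to 3.59.

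Of 31 cytochrome P450 genes, 2 were called higher (6.45%) and 4 lower (12.9%) in liver, against 5.99% and 4.59% of all genes. The 4 became 1 with voom, with surrogate variables and with the filter of 1 CPM in each tissue. *CYP2U1*, a fatty acid hydroxylase, rose in livers from 20.6 CPM (11.9 to 29.9) to 67.4 CPM (32.6 to 102) without overlap, with an interaction of 1.91 ± 0.35, and *CYP7B1*, an oxysterol hydroxylase, had 1.45 ± 0.36. *CYP2C23a* went from 697 CPM (302 to 4123) to 248 CPM (207 to 688), with hearts at 1.07 CPM or less and an interaction of -3.44 ± 0.84. *CYP4F11* had -1.72 ± 0.45. Among 15 clock genes, 2 were called higher and 1 lower (13.3% and 6.67%), against the same 5.99% and 4.59%. The repressor *PER2* rose in livers from 5.49 CPM (3.70 to 5.97) to 16.3 CPM (6.02 to 22.2), and its interaction was 1.17 ± 0.34. The nuclear receptors *RORA* and *NR1D1*, which act on the same clock elements in opposite ways, had 1.79 ± 0.61 (called in 6 of 24 such fits) and -1.46 ± 0.43.

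Cation carriers are of interest because Sal moves cations. Of 22 sodium pump and cation exchanger genes tested, 3 (13.6%) were called higher in liver and 0 lower. Over all genes these shares were 5.99% and 4.59%. The list's median interaction was 0.41. The 3 became 5 without Sal-exposed liver 2 or 4 or control liver 2 or 6, and 1 with surrogate variables. *SLC12A7*, a potassium-chloride cotransporter, lay at 18.8 CPM (13.1 to 23.6) and 27.3 CPM (24.9 to 30.6) in livers and 6.73 CPM (6.19 to 7.40) and 4.34 CPM (3.24 to 5.45) in hearts. Neither tissue overlapped, and the interaction was 1.17 ± 0.21 (p-adj = 0.00115). It shares 11061 bases with *TRIP13*. *ATP2B1*, a calcium pump of the plasma membrane, had 1.26 ± 0.28, and *SLC12A2*, a sodium-potassium-chloride cotransporter, 1.48 ± 0.49, called in 9 of 24 such fits. With offsets fitted on gene span 0 of the 22 were called higher and 1 lower.

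The 11 RT-qPCR target genes were picked from these same samples, so their count is not independent evidence. Of the 11, 4 were called higher in liver and 3 lower. *KLHL11*, an adaptor of ubiquitin ligases, lay at 0 to 0.495 CPM in control livers and 0.221 to 3.95 CPM in Sal-exposed livers, against 3.24 to 8.79 CPM in hearts; its interaction was 3.82 ± 0.79 (p-adj = 0.00261). *ADCY7*, an adenylyl cyclase, had 4.12 ± 1.03 from at most 2.78 CPM in any library, and *RBL1* is given above. *CACNG4*, a calcium channel subunit, was the reverse: hearts went from 0.801 CPM (0.376 to 1.59) to 0.0734 CPM (0 to 0.271) without overlap. Yet its heart log2FC of -2.96 did not pass (p-adj = 0.158), nor did its liver log2FC of 0.52 (p-adj = 0.644). The interaction was 3.48 ± 1.10 (p-adj = 0.0325). Apart from the fits with 1 library left out, 7 of 11 alternatives called it. In the paper's RT-qPCR, *KLHL11* was not correlated with RNA-seq. There *FGB* alone was significant in heart, and *RBL1*, *ADCY7* and *VCAN* were significant in liver.

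Called with a lower response in liver were *FGB*, fibrinogen beta (-2.63 ± 0.51), *VCAN*, the matrix proteoglycan versican (-1.54 ± 0.45), and *BOP1*, of ribosome assembly (-1.34 ± 0.40). The liver responses of *VCAN* and *BOP1* passed (log2FC -1.68 and -1.23). That of *FGB* did not (-0.83, p-adj = 0.0795). Its heart response passed (1.79, p-adj = 0.0298), at low medians of 0.689 CPM in control and 2.33 CPM in Sal-exposed hearts. *RGS8*, a regulator of G-protein signalling, rose in livers from 1.15 CPM (0.442 to 5.73) to 8.05 CPM (6.27 to 14.6) without overlap. Hearts lay at 0.667 CPM (0.376 to 1.33) and 2.10 CPM (0.912 to 3.34), which overlapped, and the heart log2FC of 1.46 did not pass (p-adj = 0.265). Its interaction was 0.85 (interval -0.60 to 2.30). *RGS16* and *SCN8A*, a sodium channel, had intervals that spanned 0 and were wider than 3 log2 units. *CERKL* had an interaction of 2.94 with an interval of 0.62 to 5.26 that missed the threshold after adjustment (p-adj = 0.0746); livers held 5 and 31 counts of *RGS16* per group.

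Genes of translation were called in small numbers and only lower in liver, while 5.99% of all genes were called higher. Of 65 cytosolic ribosomal protein genes 8 (12.3%) were called lower in liver and 0 higher (median -0.26), of 69 mitochondrial ribosomal protein genes 5 (7.25%) and 0 (median -0.27), and of 47 initiation factors 4 (8.51%) and 0 (median -0.33), against 4.59% called lower among all genes and 7.24% among those of shortest span. The 8 cytosolic calls became 3, with a median of -0.04, without Sal-exposed heart 2, and 2 with surrogate variables, and the 5 mitochondrial ones became 2 without that heart. Of 20 interferon-stimulated genes 19 had a positive interaction, with a median of 0.73, yet 1 was called higher (5%, against 5.99% of all genes). Among 29 collagen and matrix genes 2 were called lower (6.90%), and among 20 cholesterol genes 1 (5%), against the 4.59% of all genes.

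Genes called in the 2 directions differed in size and place. The genomic span, from the first to the last base of a gene, had a median of 36 kb among the 877 genes higher in liver, 8.65 kb among the 671 lower and 15.5 kb among all genes tested. With all genes split by span into 5 equal groups, in the shortest group, up to 5.32 kb, 2.15% were called higher and 7.24% lower in liver. In the longest group, from 46.7 kb, these were 12.1% and 2.12%. The median liver log2FC climbed over the groups from -0.18 to 0.32, and the heart medians lay between -0.05 and 0.

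**Figure D5:**
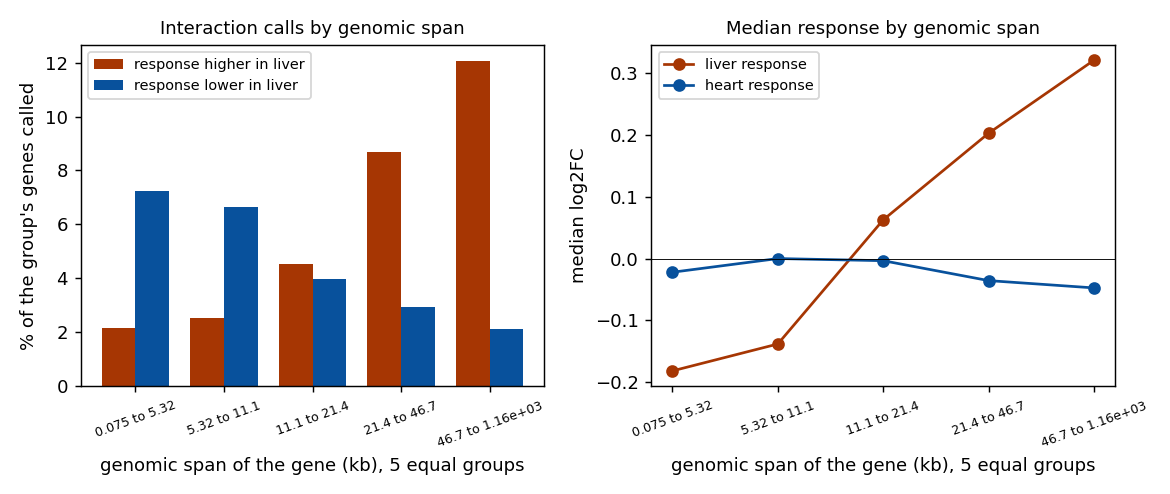
Left, the percentage of genes called for the interaction in each of 5 equal groups of genomic span (kb), higher (brown) and lower (blue) in liver; right, the median log2FC of each group in liver and heart. Calls higher in liver go from 2.15% in the shortest to 12.1% in the longest group, and calls lower from 7.24% to 2.12%.

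Chromosomes 1 to 5, the large ones, held 50.1% of the genes higher in liver, 27.9% of those lower and 42.0% of all genes tested. Chromosomes 11 to 39 held 24.2%, 51.6% and 36.1%. With offsets that remove the trend on span within each tissue, 1448 genes were called, of which 41.9% were higher in liver against 56.7% without them, and 1132 were shared. The span trend thus moves with the direction of the calls; its part in each was not tested, nor was RNA quality, for which the labels give no value per library.

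Level also differed between the classes. Genes higher in liver had a median of 4.26 CPM in control livers, 10.1 CPM in Sal-exposed livers, and 12.5 and 10.6 CPM in control and Sal-exposed hearts. Genes lower in liver had medians of 37.0 and 18.3 CPM in livers and 11.4 and 15.1 CPM in hearts. In both classes the liver medians thus moved toward the heart medians. The median of all genes tested was 8.80 CPM in control livers. Because the classes were chosen on these same values, choosing genes that rose in liver favours low control values. Choosing genes that fell favours high ones, so no conclusion is drawn from this pattern. Of the 1548 genes, 1255 were measured in both tissues.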

How the data were processed

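The authors trimmed paired reads, aligned them with STAR to GRCg7b and counted them per gene with RSEM. The count table they deposited has whole numbers for 15051 genes. Of its 36 columns, 24 matched the labels, and the 12 others were not used. The authors' tables of fold changes and p-values served only for gene positions and symbols. Counts were tested with edgeR 4.0.16 in R 4.3.3: filterByExpr (minimum count 10, minimum total 15), TMM scaling, 1 coefficient per group and the quasi-likelihood F-test for the interaction, liver and heart contrasts, with Benjamini-Hochberg adjustment. CPM values use TMM library sizes. SE is the absolute log2 value divided by the square root of F. Depth was 31370576 to 44528499 counts; exact intervals cover counting error only. No pair of libraries in a group was a copy: over 60 pairs, chi-square divided by its degrees of freedom was at least 12.4.

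Genes named were the 10 with the lowest interaction p in each direction, the 4 with the lowest larger p in each pair of signs, the 11 RT-qPCR genes, and up to 4 called members with the best-known members of each list; some items that this rule names are not reported here. The lists and this rule were chosen with earlier results of these data known. Alternatives used DESeq2 1.42.0, limma 3.58.1, sva 3.50.0 (7 surrogate variables), other scalings and filters, a replicate block and each library left out. After seeing the data, fits without 2 pairs of libraries, with a mitochondrial covariate and with span offsets were added.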

Additional observations from a re-analysis of the deposited data

Results flagged for a closer look

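In 33 of 336 groups of 6 libraries (9.82%), over the 84 genes chosen for naming, 1 library lay far from the other 5 (Dixon's test on log2 of CPM plus 0.5). Chance gives about 1 in 20 only for independent groups with a normal spread. The groups here reuse the same 24 libraries, and some lie near 0 counts. For *CLDN10*, 5 of 6 control hearts were at 0. No excess is therefore read from the 33 groups. Sal-exposed liver 4 was the far library in 8 of them: *COX1* at 86949 CPM, *ND1* at 23637, *FGB* at 9699, *UGP2* at 1097, *CYP2C23a* at 688, *ATP8* at 364, *PIGT* at 46.4 and *CROCC* at 5.30. It had the highest mitochondrial share of the livers, 30.4%. Sal-exposed liver 2 was the far library in 4, each time toward the controls: *ATP13A3* at 4.06 CPM, *RBL1* at 3.17, *BORA* at 1.70 and *KLHL11* at 0.221. Control liver 2 was so in 4, for *FGB* at 4237 CPM, *FAM126A* at 18.2, *RBL1* at 5.16 and *ADCY7* at 0.521. Sal-exposed heart 2 was so in 4, for *IFT46* at 39.2 CPM, *SLC12A2* at 4.51, *KLHL11* at 3.24 and *NFX1* at 1.94.

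The other cases fell on single values. Among Sal-exposed hearts these were *PIGR* at 2.68 CPM in heart 1, *PLG* at 2.36 in heart 3, *KLF9* at 19.98 and *DGAT2* at 2.35 in heart 4, and *HJV* at 0.251 in heart 6. Among control hearts they were *GC* at 0.845 CPM in heart 2, *CLDN10* at 0.0235 and *RORA* at 0.846 in heart 3, *PIGT* at 23.2 in heart 5, and *RBL1* at 12.9 and *FASN* at 45.0 in heart 6. Among livers they were *FAM135A* at 3.22 CPM in control liver 1 and *SAMD11* at 6.62 in Sal-exposed liver 5.

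The response differed between the tissues by the interaction test for 65 of the 84 genes, 36 higher and 29 lower in liver. Many of the 84 were named because this same test called them or gave them the lowest p. A high count was therefore set in advance and is not a result. Over all genes tested, 10.6% were called. Of the genes higher in liver, the interaction log2 was 2.55 for *ATP13A3*, 3.03 for *NUP210*, 3.77 for *NFX1*, 3.53 for *MGAT5*, 1.96 for *MTR*, 2.26 for *FAM135A*, 1.71 for *PAM*, 1.60 for *HTATSF1* and 1.44 for *RCC2*. That of *ITPK1*, fitted at 11.37 against livers at 0 counts, depends on the fit's prior count. For others it was 4.12 for *ADCY7*, 3.82 for *KLHL11*, 3.48 for *CACNG4*, 2.49 for *RBL1*, 2.46 for *KIF11*, 1.90 for *BORA*, 1.83 for *WEE1*, 1.81 for *MYO5A*, 1.59 for *MYO10* and 1.41 for *FAM126A*. Among metabolic genes it was 2.5 for *LPIN1*, 2.43 for *CPT1A*, 2.11 for *DGAT2*, 1.91 for *CYP2U1*, 1.88 for *PNPLA3*, 1.45 for *CYP7B1* and 1.05 for *ACAA1*. Among clock, carrier and chaperone genes it was 1.79 for *RORA*, 1.17 for *PER2*, 1.48 for *SLC12A2*, 1.26 for *ATP2B1*, 1.17 for *SLC12A7*, 1.59 for *HSP90AA1*, 1.12 for *SEL1L*, 1.05 for *HSPH1* and 1.04 for *DNAJB9*.

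Of the genes lower in liver, the interaction log2 was -6.58 for *CLDN10*, -4.90 for *PIGR*, -4.09 for *FETUB*, -3.64 for *APOH*, -3.13 for *GC*, -3.0 for *ALB*, -2.72 for *PLG* and -2.63 for *FGB*. Mitochondrial genes had -3.66 (*ATP8*), -2.53 (*COX2*), -2.52 (*ND1*) and -1.83 (*COX3*). Genes of metabolism and stress had -3.44 (*CYP2C23a*), -1.72 (*CYP4F11*), -2.61 (*UGP2*), -2.10 (*HSF1*), -1.18 (*BAG3*) and -1.46 (*NR1D1*). The others had -2.56 (*KDELR3*), -2.34 (*PGAP3*), -2.0 (*PEAR1*), -1.84 (*TJP3*), -1.67 (*PALM*), -1.59 (*CASP1*), -1.55 (*IFT46*), -1.54 (*VCAN*), -1.46 (*PIGT*), -1.34 (*BOP1*) and -1.31 (*STK40*).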

How the results depend on the processing

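The number of genes called stayed within 1.5 times 1548 under each alternative except p-adj alone, which called 2373 (1318 higher, 1055 lower), with 2136 of opposite signs and 1987 where the liver response alone passed. With 1 library left out it ran from 1165 (without Sal-exposed liver 6) to 2013 (without control liver 2), and 52 of the 65 named genes called were called in all 24 such fits. Called in fewer were *BOP1*, *SEL1L* and *BAG3* (23), *LPIN1* (22), *DNAJB9* and *ACAA1* (20), *CACNG4* (19), *ND1* (16), *HSPH1* (12), *SLC12A2* (9), *COX3* (8), *DGAT2* (7) and *RORA* (6); *HJV* was called in 4, *COX1* in 2 and *CERKL* in 1. Of the 52, 37 were also called under every other alternative that could be run on them, and 15 were lost under at least 1: *NR1D1* was called in 5 of 11, *COX2* in 6 of 11, *VCAN* in 7 of 11, *BORA* and *WEE1* in 7 of 12, *CYP2C23a* in 8 of 11 and *ATP8* in 9 of 11, with the other 8 lost under 1 or 2. DESeq2 called 1965 genes, 1009 of them lower in liver, 1440 of them among the 1548; svaseq called 1491, of which 839 were. Offsets on span moved the median of all genes by -0.12, voom by 0.10 and svaseq by -0.11.

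The smallest classes moved most. Genes where the heart response alone passed (27) were 70 with DESeq2, 63 with voom, 11 with svaseq, 11 without Sal-exposed hearts 1 and 4, 14 with the mitochondrial covariate and 4 when each tissue had to reach 1 CPM in 6 libraries, and ran from 7 to 33 with 1 library left out (lowest without control heart 1). Genes where both passed (7) were 43 with DESeq2, 42 with voom, 0 with the 1 CPM filter, 2 without control livers 4 and 5 and 1 with the mitochondrial covariate, and ran from 2 to 13 (lowest without Sal-exposed liver 1, highest without Sal-exposed heart 6). Whether the heart and liver libraries of a number pair was checked on 12 pairs: r ran from -0.15 to 0.64 and 7 were over 0.1. Each heart was also set against all 6 livers of its own treatment. Of the 12 hearts, 8, of which 5 were Sal-exposed, correlated best with the liver of their own number. This is a hint that some numbers mark 1 bird. Since the labels do not say so and not every pair was over 0.1, the numbers were not used as pairs. That limit cannot settle the pairing. By the methods, both organs came from the same birds. The interaction p-values thus leave out any correlation within a bird, whether or not equal numbers mark it. A replicate block of treatment and number called 1541 genes, 1328 of them among the 1548; it cannot give the pair of responses.

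Signs changed for 11 named genes, none of them called. *EMC2* became -0.067 with DESeq2, -0.054 with the 1 CPM filter, -0.018 with svaseq, -0.022 without mitochondrial genes, -0.038 without Sal-exposed hearts 1 and 4 and -0.42 with span offsets, and ran from -0.054 to 0.081 with 1 library left out. *SCN8A* became -0.098, -0.044, -0.067 and -0.38 with DESeq2, without mitochondrial genes, without hearts 1 and 4 and with span offsets, -0.28 without control livers 4 and 5, and ran from -0.21 to 0.63. *HIGD1C* became -0.029 with svaseq, -0.043 without hearts 1 and 4 and -0.15 with the mitochondrial covariate. *PCK1* became 0.061 with the replicate block, 0.40 without control livers 4 and 5 and 0.045 with the covariate, and ran from -2.0 to 0.52. *KLF9* became 0.19 without control livers 4 and 5 and ran from -0.29 to 0.081. *FASN* became -0.11 with the covariate and -0.18 with span offsets and ran from -0.15 to 0.22. *APOA1* became -0.27 with svaseq and -0.085 with the covariate and ran from -0.014 to 0.34. *CDK1* became -0.14 with svaseq and *FAM83H* -0.092 with span offsets. *SAMD11* ran from -0.25 to 0.095 and *RGS16* from -1.38 to 0.22. The cause of these changes was not tested. Depth limits the heart values of liver-made transcripts, many under 1 CPM.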

Other observations

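Genes outside the naming rule, picked after their values were seen, filled in the heart side of the interaction. *PHKA2*, a regulatory subunit of the kinase that activates glycogen phosphorylase, lay at 19.1, 23.3 and 25.4 CPM (lowest, median and highest) in control hearts and 20.6, 50.2 and 69.3 CPM in Sal-exposed hearts. Its heart log2FC was 1.05 (edgeR p-adj = 0.0318), its liver log2FC -0.19 and its interaction -1.24 ± 0.31 (p-adj = 0.00878). *EGLN3*, an oxygen-sensing prolyl hydroxylase, was downregulated in heart from 18.2 CPM (11.1 to 22) to 8.35 CPM (6.70 to 12.9), with livers at 50.9 and 63.7 CPM and an interaction of 1.18 ± 0.24. *NMRK2*, which makes a precursor of NAD, was upregulated in heart from 31.2 CPM (22.1 to 67.2) to 89.1 CPM (48.9 to 131), and *OXSR1*, a kinase that controls cation-chloride cotransporters, from 43.6 CPM (37.1 to 55.2) to 85.2 CPM (57.1 to 129). The interactions of *NMRK2* and *OXSR1*, -0.92 and -0.68, did not pass (p-adj = 0.102 and 0.0781).

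Of 22 antioxidant genes, 2 (9.09%) were called higher in liver and 1 (4.55%) lower, near the 5.99% and 4.59% of all genes, and the list's median interaction of 0.08 was close to the 0.09 of all genes (-0.29 with surrogate variables). *NNT*, which regenerates mitochondrial NADPH, rose from 42.5 CPM (27.1 to 54.7) to 129 CPM (73.8 to 160) in livers without overlap while hearts stayed at medians of 442 and 443 CPM, an interaction of 1.45 ± 0.25. *GCLC*, the first enzyme of glutathione synthesis, rose from 53.6 CPM (33.1 to 70.5) to 114 CPM (79.4 to 246), with an interaction of 1.2 ± 0.32. *GPX3*, the secreted glutathione peroxidase, went down from 1836 CPM (433 to 2830) to 257 CPM (144 to 815) and had -3.13 ± 0.61.

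Transcripts of some epithelial genes, also picked after their values were seen, were at trace level in hearts. The epithelial surface protein *EPCAM* lay at 0 to 0.289 CPM in control hearts and 0.456 to 2.95 CPM in Sal-exposed hearts, against 36.8 to 86.3 CPM in livers. The epithelial cadherin *CDH1* lay at 0.0890 to 0.364 and 0.176 to 3.22 CPM in hearts, against 106 to 291 CPM in control and 252 to 375 CPM in Sal-exposed livers. *AGR2*, a protein of secretory epithelia, lay at 0 to 0.0455 and 0.203 to 0.644 CPM in hearts and at 0.0975 to 2.43 CPM in control livers. The summed markers of kidney and intestine epithelium had medians of 4.37 and 4.20 CPM in control and Sal-exposed hearts. Much of that sum was *CUBN*, with medians of 3.13 and 2.03 CPM, so the sum says little about the rarer members. Of the 6 gene models of this list that were tested, 4 had a positive heart log2FC. Their median heart log2FC was 1.71, and 0 passed in heart on their own. The source of these transcripts was not tested.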
